A study of Canis lupus familiaris with 8 samples.

Results

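The mRNA of Nfat5-siRNA-treated MDCK I cells kept at 500 mOsm was compared with that of control-siRNA-treated cells kept at 300 mOsm. MDCK I is a canine kidney epithelial cell line. The libraries were chosen by their labels alone. They were the 4 libraries of cells that received an siRNA against Nfat5, 2 for each of 2 constructs, and the 2 isosmotic control libraries, which made 6 of the 8 libraries of the series. The question was which mRNAs differed from the isosmotic control level in cells that had both a hyperosmotic medium and an siRNA against Nfat5.

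The 6 libraries formed 3 groups of 2. Neg-siRNA (300 mOsm) received the control siRNA, which the study describes as directed against Slc22a6, a gene not expressed in these cells, and stayed in isosmotic medium. These 2 are called the control libraries below. Nfat5-1-siRNA (500 mOsm) and Nfat5-2-siRNA (500 mOsm) received different siRNA constructs against Nfat5 and spent the last 24 h in growth medium to which the sugar raffinose had been added. The siRNA concentration was 100 nM in each group. In each group the replicates were passages of 1 cell line, passage 15 for replicate 1 and passage 17 for replicate 2. The Nfat5-siRNA arm differed from the control arm in siRNA and in medium at the same time, and the parts of the siRNA and of the osmolality in any difference between the arms cannot be told apart here. In libraries made from many cells, fewer cells of a kind and less RNA per cell cannot be told apart either.

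Replicates 1 and 2 held 44515340 and 34564103 counts in the control group, 46043788 and 45111348 with Nfat5-1-siRNA, and 37488252 and 39036966 with Nfat5-2-siRNA. Of the 32704 genes in the table, 19185 reached a sum of 5 counts across these libraries and were tested. Values are given below as CPM, counts scaled to 1000000 per library after a correction for composition, in the order replicate 1, replicate 2. For the Nfat5-siRNA libraries together, the order is Nfat5-1-siRNA, then Nfat5-2-siRNA. Differences given in times or as a fold are those of the fitted log2 fold change, not ratios of the mean CPM. A single count was worth between 0.0218 and 0.0302 CPM. The 10 genes with the most counts took 7.56% and 9.18% of the control libraries and between 5.22% and 5.58% of the Nfat5-siRNA libraries. Genes are named where a supplementary table pairs their identifier with a symbol, as for 859 of the tested genes. The 10 epithelial marker genes that were listed for a check of the labelled cell type were all without such a pair, so the label could not be checked against them. Of the listed markers of fibroblasts, leukocytes, endothelium, muscle and neurons, 3 could be read. The endothelial receptor TIE1 was at 26.4 and 40.0 CPM in the control libraries and 4.15, 3.78, 6.02 and 2.93 CPM in the Nfat5-siRNA libraries, the fibroblast marker PDGFRA at 37.8 and 32.2 CPM in the control libraries and 31.7, 34.6, 29.7 and 35.6 CPM in the Nfat5-siRNA libraries, and the surface protein THY1 at 0.00 and 0.0604 CPM in the control libraries and 1.22, 0.568, 0.838 and 1.36 CPM in the Nfat5-siRNA libraries. TIE1 was lower (log2 fold change -3.01, adjusted p = 1.63e-04, and -2.38 without replicate 2 of the control) and THY1 higher (adjusted p = 0.0158, from 0 and 2 counts in the control libraries) in the Nfat5-siRNA libraries. The THY1 call was lost without either control library and without replicate 2 of Nfat5-2-siRNA. The part of other cell types in the results below was not tested.

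NFAT5, also called the tonicity-responsive enhancer-binding protein, is a transcription factor that cells use when the medium around them becomes hyperosmotic. It is known to raise the transcription of carriers and enzymes that fill the cell with organic osmolytes such as taurine, betaine, myo-inositol and sorbitol, which balance the outside osmolality without disturbing proteins as salt does. Kidney cells use this pathway strongly, since the renal medulla is hyperosmotic in the body. Raffinose is a trisaccharide that does not readily enter cells.

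In all, 2461 genes were higher and 2386 genes were lower in Nfat5-siRNA (500 mOsm) than in Neg-siRNA (300 mOsm), 12.8% and 12.4% of the tested genes and together 25.3% (quasi-likelihood test of edgeR blocked on the replicate number, Benjamini-Yekutieli adjusted p under 0.05). Of the genes that were higher, 1655 differed by more than 2-fold, 617 by more than 4-fold and 215 by more than 16-fold. Of those that were lower, 1766 differed by more than 2-fold, 662 by more than 4-fold and 113 by more than 16-fold. The median log2 fold change was 1.25 among the genes that were higher, -1.38 among those that were lower and 0.09 among all tested genes. Within each passage, both Nfat5-siRNA libraries lay on the same side of the control library for every gene that passed the test. Since the test was blocked on the passage, passing it favours this, and it is no separate evidence. The arms also did not overlap for 56.9% of all tested genes, so that a gap between the arms was common in itself. In 129 of the genes that were higher, each control library held at most 3 counts, and their fold changes are not given. In 33 of the genes that were lower, each Nfat5-siRNA library held at most 3 counts, so the size of their falls is imprecise.

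The counts depended on the control libraries. Without replicate 1 of Neg-siRNA (300 mOsm), 745 genes were higher and 797 lower, of which 741 and 796 were among those called with all 6 libraries. Without replicate 2 of Neg-siRNA (300 mOsm), 535 were higher and 565 lower, of which 531 and 564 were among them. Leaving out any 1 of the Nfat5-siRNA libraries gave between 1988 and 2735 genes in each direction.

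**Figure D1:**
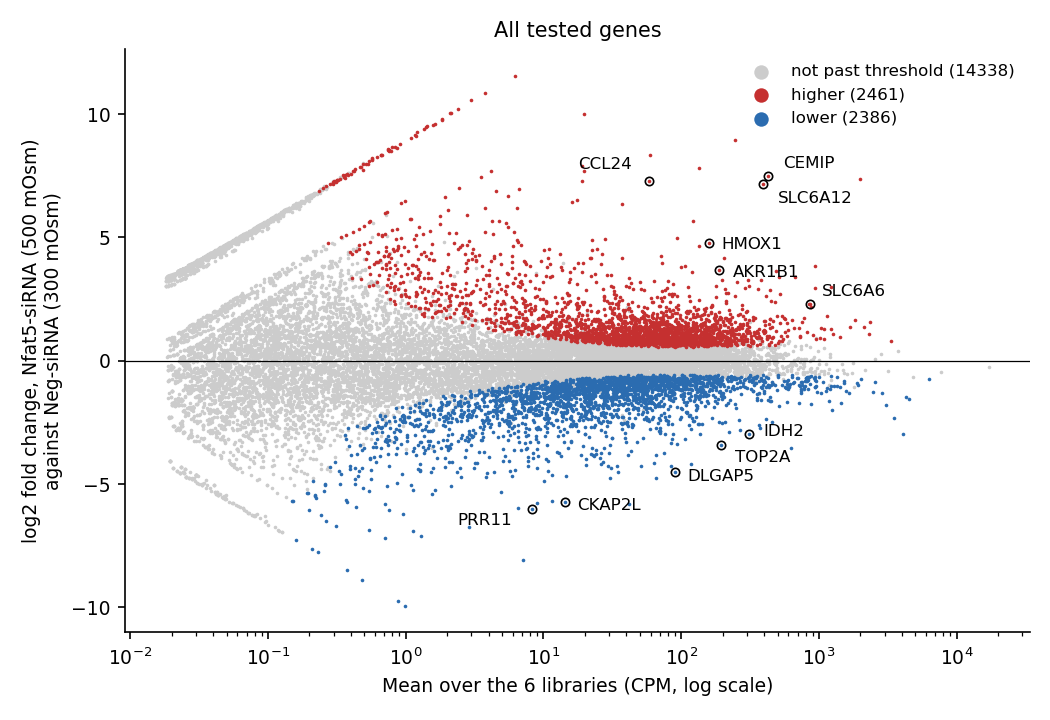
Each point is 1 of the 19185 tested genes, with its mean over the 6 libraries in CPM on a log axis and its log2 fold change between Nfat5-siRNA (500 mOsm) and Neg-siRNA (300 mOsm). The 2461 genes higher and the 2386 genes lower reach across a wide range of expression, and the straight upper edge at the left is made of genes with 0 counts in both control libraries.

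The target of the siRNAs was read first. The identifier of NFAT5 is not paired with a symbol in the sources used here, and the gene was taken by its position as the neighbour of NQO1 on chromosome 5, 80003598 to 80115099 of CanFam3.1. Its mRNA was at 22.5 and 24.1 CPM in the control libraries, 107 and 90.4 CPM with Nfat5-1-siRNA and 77.0 and 77.0 CPM with Nfat5-2-siRNA. Each Nfat5-siRNA library was above both control libraries, and the fitted level was 3.76 times that of the control (log2 fold change 1.91 ± 0.18 (SE), adjusted p = 2.04e-04). The constructs did not differ past the threshold in this mRNA (log2 difference -0.36 ± 0.14 (SE), adjusted p = 1.00). The counts therefore hold no check of the knockdown. The study followed the knockdown by western blot and by real-time PCR. It reports less NFAT5 protein with the siRNAs against Nfat5 than with the control siRNA, both in hyperosmotic medium. At the mRNA level it reports no significant effect of the siRNAs. Those measurements were not analysed here, and it could not be told from these libraries how much NFAT5 protein was left.

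The genes of organic osmolytes were higher in every case that could be read. Of 21 genes on this list, 6 could be read, NFAT5 included, and 6 of 6 were higher, beside 48.0% of all 859 named genes past the threshold in either direction and 24.2% of the 18326 genes without a symbol. By direction, 219 of the 859 named genes were higher and 193 lower, and the 48.0% set beside the lists below also counts both directions. The named genes were selected by the study on libraries that include these 6 libraries. The stated rule, raised at 500 mOsm and lowered with both Nfat5-siRNAs, is not met by most rows of its table, so what the 48.0% stands for is uncertain. Neither this count nor those of the lists below are independent evidence of a direction, and genes of a list without a symbol were not read.

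SLC6A12, the carrier that takes up betaine and GABA (chromosome 27, 42269697 to 42296182), had the largest change of the list. It was at 2.67 and 5.38 CPM in the control libraries, 812 and 421 CPM with Nfat5-1-siRNA and 603 and 518 CPM with Nfat5-2-siRNA. The lowest of the Nfat5-siRNA libraries was far above the higher of the control libraries, and the fitted difference was 144 times (log2 fold change 7.17 ± 0.42 (SE), adjusted p = 1.18e-05). The size of this change rested on the control libraries, since the log2 fold change was 6.45 without replicate 1 and 8.05 without replicate 2 of the control. SLC5A3, the sodium-coupled myo-inositol carrier (chromosome 31, 28610332 to 28635233), was at 0.325 and 0.181 CPM in the control libraries, 7.56 and 4.02 CPM with Nfat5-1-siRNA and 4.77 and 3.57 CPM with Nfat5-2-siRNA. Both control libraries lay under 1 CPM and the 4 others above it, a difference of 19.5 times (log2 fold change 4.29 ± 0.40 (SE), adjusted p = 1.79e-04).

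AKR1B1 encodes aldose reductase, which makes sorbitol from glucose (chromosome 14, 2991938 to 3006606). It was at 18.6 and 23.1 CPM in the control libraries, 329.7 and 182 CPM with Nfat5-1-siRNA and 295 and 272 CPM with Nfat5-2-siRNA. The arms did not overlap, although replicate 2 of Nfat5-1-siRNA lay under the other Nfat5-siRNA libraries. The fitted difference was 12.7 times (log2 fold change 3.67 ± 0.25 (SE), adjusted p = 2.76e-05). SLC6A6, the taurine carrier (chromosome 20, 4531730 to 4616854), was at 258 and 213 CPM in the control libraries, 1407 and 1037 CPM with Nfat5-1-siRNA and 1258 and 961 CPM with Nfat5-2-siRNA. In both constructs the library of passage 15 was above that of passage 17, and all 4 were above the control libraries, by 4.92 times in the fit (log2 fold change 2.30 ± 0.15 (SE), adjusted p = 2.21e-05).

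Of 3 amino acid carriers read, the 2 already described, SLC6A6 and SLC6A12, were higher, beside 48.0% of all named genes called, and the proton-coupled carrier SLC36A4 did not pass (log2 fold change 0.11, adjusted p = 1.00). ISYNA1, the enzyme of the first step of myo-inositol synthesis, changed least of the 6 genes read from the osmolyte list. It was at 11.5 and 11.9 CPM in the control libraries and 25.2, 21.0, 27.3 and 25.2 CPM in the Nfat5-siRNA libraries (log2 fold change 1.07 ± 0.18 (SE), adjusted p = 0.00701). Without replicate 1 or replicate 2 of the control 5 of the 6 kept their call, and ISYNA1 lost it (adjusted p = 0.284 and 0.139). Per kilobase of exon, the mean level over the Nfat5-siRNA libraries was 265 CPM per kb for AKR1B1, 179 for SLC6A6, 156 for SLC6A12, 19.2 for NFAT5 and 1.74 for SLC5A3. This measure depends on the exons annotated for each gene. By it, SLC5A3 was the lowest of these genes in the Nfat5-siRNA libraries, and SLC6A12 reached nearly the level of SLC6A6.

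TMEM184B encodes a membrane protein that the study treats as a putative modulator of ibuprofen transport (chromosome 10, 26423924 to 26474431). Its mRNA was at 96.2 and 93.4 CPM in the control libraries, 372 and 294 CPM with Nfat5-1-siRNA and 388 and 313 CPM with Nfat5-2-siRNA. The 4 Nfat5-siRNA libraries lay above the control libraries and close to each other, at 3.58 times the control level (log2 fold change 1.84 ± 0.15 (SE), adjusted p = 6.96e-05). Of the 4 genes read from the list of the Tmem184 family and bile acid genes, 3 were higher, 75% beside 48.0% of all named genes, and 2 were higher without either control library. NR1H4, the nuclear receptor of bile acids, was at 0.812 and 0.937 CPM in the control libraries, 17.9 and 12.8 CPM with Nfat5-1-siRNA and 15.7 and 16.1 CPM with Nfat5-2-siRNA. It was below 1 CPM in both control libraries and above 12 CPM in the 4 others, 17.8 times higher (log2 fold change 4.16 ± 0.27 (SE), adjusted p = 2.22e-05). SLCO1A2, an uptake carrier of organic anions, was at 8.94 and 18.5 CPM in the control libraries and 34.6, 59.9, 35.3 and 29.5 CPM in the Nfat5-siRNA libraries (adjusted p = 0.0108), and its call was lost without either control library, with adjusted p = 0.463 and 0.124. The steroid sulfate carrier SLC10A6 did not pass the threshold (log2 fold change 0.68, adjusted p = 0.511).

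**Figure D2:**
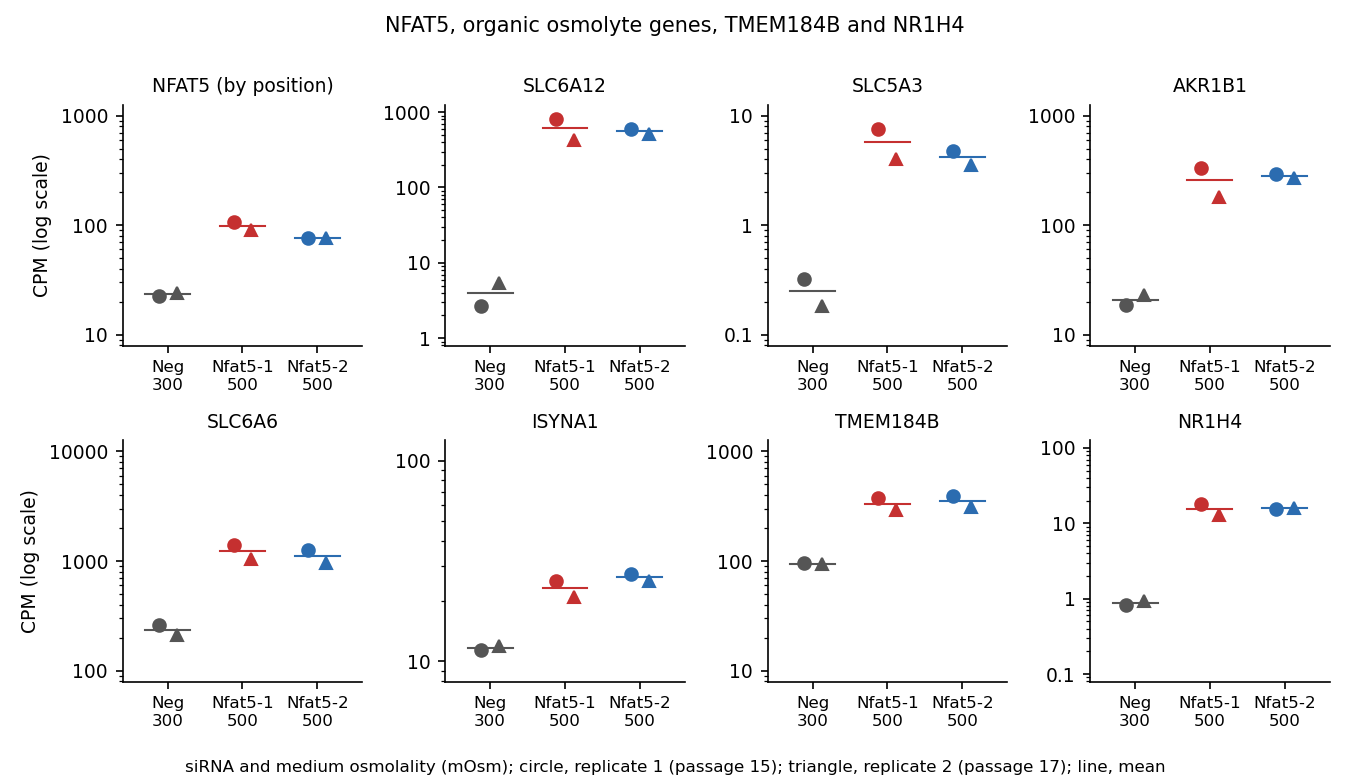
CPM of each library on a log axis for NFAT5 (named by position), SLC6A12, SLC5A3, AKR1B1, SLC6A6, ISYNA1, TMEM184B and NR1H4 in the control libraries and with each of both constructs at 500 mOsm, with circles for replicate 1, triangles for replicate 2 and a line at the mean of each pair. In all 8 genes the 4 Nfat5-siRNA libraries lie above both control libraries, from about 2.10 times for ISYNA1 to 144 times for SLC6A12.

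Beta subunits of the sodium pump were higher together with a potassium channel and a water channel. Of 10 genes read for cell volume and ion transport, 6 were higher, 1 was lower and 3 did not pass, so that 70% were called beside 48.0% of all named genes. The beta subunits ATP1B1 and ATP1B3 rose by log2 fold changes of 0.80 and 1.52 (adjusted p = 0.00608 and 6.73e-04), and ATP1B3 lost its call without replicate 1 of the control (adjusted p = 0.0587) and ATP1B1 without either (0.181 and 0.256). KCNJ15, an inwardly rectifying potassium channel of a single exon (chromosome 31, 33385755 to 33386885), was at 0.0928 and 0.0604 CPM in the control libraries, 10.6 and 5.87 CPM with Nfat5-1-siRNA and 13.4 and 9.62 CPM with Nfat5-2-siRNA. With 4 and 2 counts in the control libraries it was near the limit of detection there, so its ratio of 124 is imprecise (log2 fold change 6.95 ± 0.45 (SE), adjusted p = 1.95e-05).

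AQP1, the water channel, was at 0.0696 and 0.665 CPM in the control libraries and 3.17, 3.52, 3.28 and 5.36 CPM in the Nfat5-siRNA libraries (log2 fold change 3.64, adjusted p = 0.00495). Its control libraries differed from each other by several times, and without replicate 1 of the control the log2 fold change was 2.73 (adjusted p = 0.0701), and 5.47 without replicate 2. STK39, the kinase that activates sodium-coupled chloride cotransporters, rose by a log2 fold change of 1.26 (adjusted p = 0.00867, lost without either control library with 0.391 and 0.0637). CLIC1, a chloride intracellular channel protein, was the 1 gene of the list that was lower, at 722 and 829 CPM in the control libraries and 336, 287, 222 and 266 CPM in the Nfat5-siRNA libraries (log2 fold change -1.48, adjusted p = 6.14e-04), with adjusted p = 0.0786 without replicate 2 of the control. The potassium-chloride cotransporter SLC12A7, the ubiquitin ligase NEDD4L and the chloride transporter CLCN3 had log2 fold changes of -0.05, 0.05 and 0.25 and did not pass. The list's count rested on the control libraries, since 1 gene was higher and 1 lower without replicate 1 of Neg-siRNA (300 mOsm), and 3 were higher and 0 lower without replicate 2.

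Among named genes that averaged 10 CPM or more in the higher arm, the 12 largest rises included CEMIP, a protein needed for the breakdown of hyaluronan (chromosome 3, 56729184 to 56786497). It was at 5.48 and 2.02 CPM in the control libraries, 631 and 539 CPM with Nfat5-1-siRNA and 707 and 677 CPM with Nfat5-2-siRNA. The control libraries held a few CPM and the Nfat5-siRNA libraries more than 500 CPM, 178 times higher (log2 fold change 7.48 ± 0.35 (SE), adjusted p = 5.08e-06). Its log2 fold change was 8.23 without replicate 1 and 6.93 without replicate 2 of the control. CCL24, a chemokine that attracts eosinophils (chromosome 6, 7167263 to 7179455), was at 0.348 and 0.755 CPM in the control libraries, 109 and 47.0 CPM with Nfat5-1-siRNA and 120.1 and 70.7 CPM with Nfat5-2-siRNA. In both constructs replicate 2 was lower than replicate 1, yet the arms were far apart (log2 fold change 7.27 ± 0.43 (SE), adjusted p = 1.37e-05). Without replicate 1 or 2 of the control its log2 fold change was 6.28 or 8.35. FAT4, a giant cadherin of cell polarity, was at 0.186 and 0.393 CPM in the control libraries and 15.8, 28.0, 30.8 and 29.9 CPM in the Nfat5-siRNA libraries (log2 fold change 6.53 ± 0.40 (SE), adjusted p = 1.66e-05).

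HMOX1, the enzyme that degrades heme, rose 27.3-fold and is described with oxidative defence below. MEST, an imprinted gene, rose 20.0-fold, NPTX2, a secreted pentraxin, 18.1-fold and DMXL2, a partner of the vacuolar proton pump, 15.5-fold. The cytochrome CYP4B1 was at 0.882 and 0.544 CPM in the control libraries and 17.1, 9.72, 9.96 and 6.72 CPM in the Nfat5-siRNA libraries, the lipid droplet protein CIDEC at 0.882 and 1.33 CPM in the control libraries and 12.3, 18.5, 13.2 and 17.2 CPM in the Nfat5-siRNA libraries and KSR1, a scaffold of the RAF and MEK kinases, at 1.90 and 1.57 CPM in the control libraries and 33.3, 22.4, 21.4 and 18.5 CPM in the Nfat5-siRNA libraries. These 7 genes had adjusted p-values of at most 0.000167 (edgeR). MEST shares exonic bases with another annotated gene, and the counting could split its reads.

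The 12 largest falls under the same rule began with PRR11, known from cell cycle progression (chromosome 9, 33728630 to 33751816). It was at 23.3 and 25.0 CPM in the control libraries, 0.333 and 0.349 CPM with Nfat5-1-siRNA and 0.432 and 0.397 CPM with Nfat5-2-siRNA. CDKN3, a phosphatase of cyclin-dependent kinases, was at 16.8 and 21.1 CPM in the control libraries and 0.244, 0.153, 0.457 and 0.347 CPM in the Nfat5-siRNA libraries. CKAP2L, a protein of the mitotic spindle, was at 40.1 and 42.5 CPM in the control libraries and 0.599, 1.14, 0.813 and 0.595 CPM in the Nfat5-siRNA libraries. In these 3 genes all 4 Nfat5-siRNA libraries were near or under 1 CPM, and they were lower by 63.7, 63.5 and 52.5 times (adjusted p = 3.53e-06, 1.16e-05 and 3.92e-06). MAB21L3 was at 26.3 and 25.7 CPM in the control libraries and 0.532, 0.349, 0.787 and 0.298 CPM in the Nfat5-siRNA libraries, lower by 55.2 times, and PLPPR2, of a family related to phospholipid phosphatases, at 9.12 and 12.2 CPM in the control libraries and 0.310, 0.240, 0.686 and 0.422 CPM in the Nfat5-siRNA libraries. The remaining falls were those of CCNB3, DLGAP5, SPAG5, MND1, CENPA, SPC24 and CCNB2, with log2 fold changes from -4.86 to -4.25. That of MND1 was -5.19 without replicate 1 and -3.75 without replicate 2 of the control. Without any 1 of the 6 libraries, the 24 genes named by this rule stayed past the threshold.

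**Figure D3:**
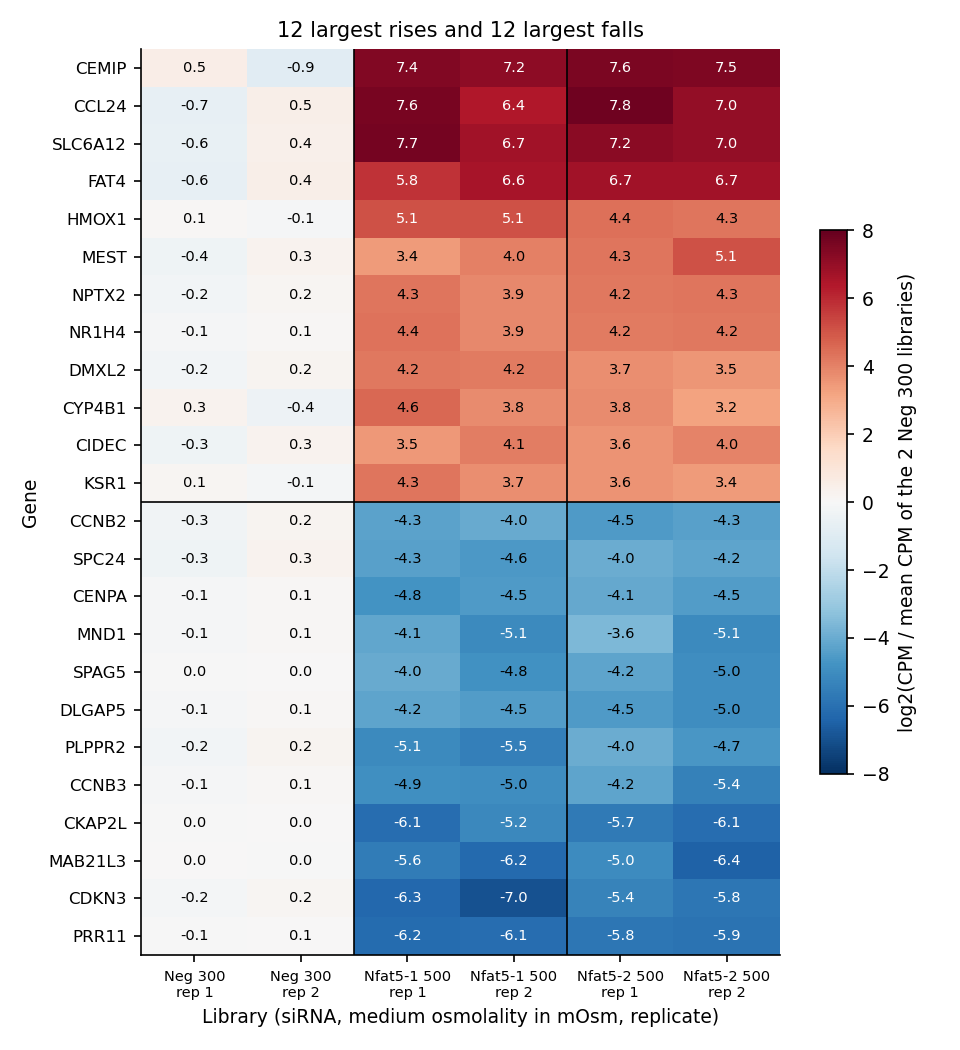
Heat map of the 12 largest rises and the 12 largest falls (rows) in the 6 libraries (columns), coloured and numbered by the log2 of CPM over the mean CPM of both Neg-siRNA (300 mOsm) libraries. The control libraries stay within 1 of 0 on this scale, and the Nfat5-siRNA libraries lie at least 3 units away from it in every row.

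The mitosis genes that could be read were lower. All 37 genes read from a list of 44 were lower, with a median log2 fold change of -2.69, from -4.86 (CCNB3) to -0.88 (KIF18A), beside a median of 0.09 over all tested genes. Of all named genes 48.0% were called, and 12.4% of all tested genes were lower. The arms did not overlap in any of the 37, beside 586 of all 859 named genes and 56.9% of all tested genes without overlap. As background, these genes are transcribed mainly shortly before and during cell division. The 37 genes were again among those that the study had selected on libraries including these.

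DLGAP5, a microtubule-associated protein of the spindle, was at 229.9 and 264 CPM in the control libraries, 13.3 and 11.2 CPM with Nfat5-1-siRNA and 10.6 and 7.96 CPM with Nfat5-2-siRNA. TOP2A, the topoisomerase that untangles chromosomes, was at 504 and 469 CPM in the control libraries, 64.2 and 42.1 CPM with Nfat5-1-siRNA and 45.2 and 34.7 CPM with Nfat5-2-siRNA. Their Nfat5-siRNA libraries lay in a narrow band far below both control libraries (log2 fold change -4.53 ± 0.18 (SE), adjusted p = 3.92e-06 for DLGAP5, and log2 fold change -3.41 ± 0.17 (SE), adjusted p = 6.75e-06 for TOP2A). CENPA, the histone variant of centromeres, was at 28.2 and 31.0 CPM in the control libraries and 1.09, 1.29, 1.70 and 1.31 CPM in the Nfat5-siRNA libraries, and SPC24, a subunit of the kinetochore, at 74.6 and 111 CPM in the control libraries and 4.61, 3.93, 5.82 and 5.06 CPM in the Nfat5-siRNA libraries. The cyclins CCNB2, CCNA2 and CCNB3 fell by 19.0, 17.3 and 29.0 times. The kinases PLK1, AURKA, BUB1 and TTK had log2 fold changes of -2.25, -1.93, -3.80 and -2.90. The kinesin motors KIF11, KIF20A and KIF23 had -2.99, -3.55 and -2.58. MYBL2, a transcription factor of proliferating cells, was at 398 and 414 CPM in the control libraries and 171, 151, 111 and 105 CPM in the Nfat5-siRNA libraries, a smaller difference (log2 fold change -1.60, adjusted p = 9.66e-04). Without replicate 1 of Neg-siRNA (300 mOsm) 34 of the 37 were past the threshold, and 33 without replicate 2. MYBL2, KIF18A and the kinesin KIF14 lost their calls without either (adjusted p = 0.0509 and 0.103, 0.155 and 0.737, and 0.0513 and 0.160), and the kinesin CENPE without replicate 2 (0.0505).

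From a list of 34 genes of DNA replication and repair, the 6 that could be read were lower, with a median log2 fold change of -2.10. They too had been selected by the study, and 48.0% of all named genes were called. DUT, which keeps uracil out of DNA, was at 87.8 and 78.5 CPM in the control libraries and 11.7, 11.6, 16.2 and 17.0 CPM in the Nfat5-siRNA libraries (log2 fold change -2.56, adjusted p = 4.02e-05). BRCA1 and FANCI, both of DNA repair, had log2 fold changes of -2.58 and -2.30, and the clamp loader subunit RFC2, the polymerase POLD1 and the helicase subunit GINS4 had -1.91, -1.79 and -1.51. The replication list kept 5 of its 6 calls without replicate 2 of Neg-siRNA (300 mOsm), where GINS4 lost its call (adjusted p = 0.103).

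Of 7 genes read for p53 and growth arrest, 3 were higher, 1 lower and 3 not past the threshold, so that 57.1% were called beside 48.0% of all named genes. PLK3, a stress-responsive kinase, was at 3.27 and 2.42 CPM in the control libraries and 19.1, 23.9, 30.3 and 26.0 CPM in the Nfat5-siRNA libraries (log2 fold change 3.13, adjusted p = 9.54e-05). TIGAR, a phosphatase that lowers glycolytic flux, was at 40.9 and 50.7 CPM in the control libraries and 175, 188, 228 and 192 CPM in the Nfat5-siRNA libraries, and ZMAT3, an RNA-binding p53 target, at 8.82 and 10.2 CPM in the control libraries and 29.4, 31.3, 27.2 and 29.0 CPM in the Nfat5-siRNA libraries. AIFM2, an oxidoreductase that protects membrane lipids, was lower (log2 fold change -1.87, adjusted p = 8.89e-05). SFN, a 14-3-3 protein, was at 80.1 and 85.7 CPM in the control libraries, 113 and 133 CPM with Nfat5-1-siRNA and 275 and 234 CPM with Nfat5-2-siRNA. It stood above the control libraries in all 4 libraries but did not pass (log2 fold change 1.19, adjusted p = 0.144), and it was higher with Nfat5-2-siRNA than with Nfat5-1-siRNA (log2 difference 1.05, adjusted p = 9.38e-07, and 0.0855 without the replicate block).

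Stress responses outside the osmolyte genes were uneven. Of 6 heat shock and chaperone genes read, 2 were higher and 4 did not pass, 33.3% beside 48.0% of all named genes. HSPH1, a nucleotide exchange factor of HSP70 from the HSP110 family (chromosome 25, 8972958 to 9000762), was at 84.9 and 88.2 CPM in the control libraries, 1293 and 671 CPM with Nfat5-1-siRNA and 1162 and 689 CPM with Nfat5-2-siRNA. Replicate 1 was higher than replicate 2 under both constructs, and the arms were well apart (log2 fold change 3.38 ± 0.23 (SE), adjusted p = 2.69e-05). HSF2, a heat shock transcription factor, was at 9.82 and 10.9 CPM in the control libraries and 31.1, 24.0, 20.0 and 17.2 CPM in the Nfat5-siRNA libraries (adjusted p = 0.0335), and its call was lost without either control library (adjusted p = 0.951 and 0.281). The co-chaperone DNAJB1 was at 105 and 109 CPM in the control libraries and 107, 97.7, 105 and 90.5 CPM in the Nfat5-siRNA libraries, and CRYAB, a small heat shock protein, at 7.92 and 6.22 CPM in the control libraries and 13.5, 4.78, 9.55 and 4.89 CPM in the Nfat5-siRNA libraries. For these and for CDC37L1 and HSPA1L the adjusted p was 1.00.

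In the unfolded protein response of the endoplasmic reticulum, 3 of 8 genes were higher and 2 lower, 62.5% beside 48.0% of all named genes. EDEM3, which marks misfolded glycoproteins for degradation, was at 66.0 and 64.2 CPM in the control libraries and 323, 216, 225 and 178 CPM in the Nfat5-siRNA libraries. The stress sensor kinase EIF2AK3 (PERK) was at 87.2 and 93.6 CPM in the control libraries and 256, 344, 238 and 342 CPM in the Nfat5-siRNA libraries, and CRELD2, a chaperone-like protein of that compartment, rose 2.30-fold. SIL1, the nucleotide exchange factor of the chaperone BiP, was at 94.7 and 99.2 CPM in the control libraries and 27.9, 30.4, 28.4 and 26.0 CPM in the Nfat5-siRNA libraries (log2 fold change -1.78, adjusted p = 4.19e-05), and the oxidase ERO1A was lower with -0.99, a call lost without replicate 2 of the control (adjusted p = 0.243). HSP90B1, EDEM1 and EDEM2 had log2 fold changes of 0.16, 0.09 and -0.13 and did not pass. CRELD2 lost its call without either control library (adjusted p = 0.0549 and 0.119). Only 2 genes of the ATF4 list could be read, of which the pseudokinase TRIB1 was lower (log2 fold change -1.27, adjusted p = 2.46e-04) and the translation inhibitor EIF4EBP1 was at -0.46 (adjusted p = 0.429).

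Among 8 genes of NRF2 and oxidative defence, 3 were higher, 2 lower and 3 did not pass, again 62.5% beside 48.0% of all named genes. HMOX1 (chromosome 10, 28743753 to 28752012) was at 9.26 and 7.92 CPM in the control libraries, 299 and 291 CPM with Nfat5-1-siRNA and 180.0 and 166 CPM with Nfat5-2-siRNA. The lowest of the 4 Nfat5-siRNA libraries was many times above both control libraries, which held under 10 CPM (log2 fold change 4.77 ± 0.32 (SE), adjusted p = 2.33e-05). PIR, an iron-containing nuclear protein, was at 49.7 and 48.5 CPM in the control libraries and 259, 205, 211 and 209.7 CPM in the Nfat5-siRNA libraries (log2 fold change 2.17, adjusted p = 3.28e-05), and shares exonic bases with another annotated gene. The glutathione conjugate pump ABCC1 rose by 1.27 (adjusted p = 9.41e-04), with its call lost without either control library (adjusted p = 0.0709 and 0.0528). The glutathione transferase GSTA4 and the transketolase TKT were lower, by 3.72 and 2.30 times, and TKT lost its call without replicate 2 of the control (adjusted p = 0.0551). NQO1, the quinone reductase, was at 444 and 411 CPM in the control libraries, 433 and 407 CPM with Nfat5-1-siRNA and 451 and 365 CPM with Nfat5-2-siRNA. Its libraries overlapped between the arms (log2 fold change -0.05, adjusted p = 1.00). Catalase (CAT) and malic enzyme (ME1) had log2 fold changes of 0.00 and 0.40 and did not pass.

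The metallothioneins, small metal-binding proteins, were higher in all 3 genes read, beside 48.0% of all named genes called. MT1X (chromosome 2, 59602961 to 59604676) was at 45.6 and 68.2 CPM in the control libraries, 994 and 766 CPM with Nfat5-1-siRNA and 519 and 540.3 CPM with Nfat5-2-siRNA, and MT2A (chromosome 2, 59607926 to 59608825) at 45.0 and 62.8 CPM in the control libraries, 553 and 403 CPM with Nfat5-1-siRNA and 342 and 350.5 CPM with Nfat5-2-siRNA. Both lay many times above the control libraries, and MT1X was lower with Nfat5-2-siRNA than with Nfat5-1-siRNA, whereas the difference of MT2A did not pass (log2 difference -0.47 ± 0.15 (SE), adjusted p = 0.352). The MT1X difference was lost without the replicate block (adjusted p = 1.00), with filterByExpr and without either Nfat5-2-siRNA library or replicate 1 of Nfat5-1-siRNA. MT1E, placed on an unassembled scaffold, was at 6.92 and 8.97 CPM in the control libraries, 90.3 and 90.0 CPM with Nfat5-1-siRNA and 47.9 and 58.2 CPM with Nfat5-2-siRNA. The log2 fold changes were 3.64, 2.93 and 3.18 (adjusted p = 1.46e-04, 1.15e-04 and 1.99e-04, edgeR). These genes are close relatives, so the counting could split their reads and the value of each is uncertain.

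Of 10 genes read from a list of 24 for the tricarboxylic acid cycle and fatty acid oxidation, 7 were lower, 1 was higher and 2 did not pass, so that 80% were called beside 48.0% of all named genes, which the study selected on libraries including these, with a median log2 fold change of -1.53. IDH2, the mitochondrial isocitrate dehydrogenase that makes NADPH (chromosome 3, 53070718 to 53082680), was at 791 and 692 CPM in the control libraries, 101 and 85.2 CPM with Nfat5-1-siRNA and 95.6 and 99.3 CPM with Nfat5-2-siRNA. The 4 Nfat5-siRNA libraries differed little and lay 7.78 times below the control level (log2 fold change -2.96 ± 0.13 (SE), adjusted p = 3.92e-06). Its cytosolic counterpart IDH1 was the 1 gene that was higher, at 74.4 and 69.4 CPM in the control libraries and 277, 218, 217 and 196 CPM in the Nfat5-siRNA libraries (log2 fold change 1.65 ± 0.16 (SE), adjusted p = 2.09e-04).

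DECR1, of the oxidation of unsaturated fatty acids, was at 41.8 and 41.8 CPM in the control libraries and 6.63, 5.68, 6.12 and 4.64 CPM in the Nfat5-siRNA libraries. Both subunits of the electron transfer flavoprotein were lower, ETFB with a log2 fold change of -2.49 and ETFA with -1.55. Isovaleryl-CoA dehydrogenase (IVD), the succinyl-CoA ligase subunit SUCLG2 and the medium-chain acyl-CoA dehydrogenase ACADM had -1.66, -1.50 and -1.33. The pyruvate dehydrogenase subunit DLAT and pyruvate carboxylase (PC) had 0.09 and 0.16 and did not pass. The list kept 7 lower genes without replicate 1 of Neg-siRNA (300 mOsm) and 6 without replicate 2, where ACADM lost its call (adjusted p = 0.0589).

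The mitochondrial chromosome itself held 37 tested genes, of which 10 were lower and 0 higher, 27.0% beside 25.3% of all genes. Their median log2 fold change was -0.80. The chromosome took 5.67% and 6.52% of the control libraries, and 4.34%, 4.44%, 4.36% and 4.65% of the Nfat5-siRNA libraries, so that its share was lower in each of the latter.

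Among 10 genes of glycolysis and hypoxia, 3 were higher and 4 lower, 70% beside 48.0% of all named genes. PFKL, the liver-type phosphofructokinase (chromosome 31, 38156314 to 38178793), was at 572 and 574 CPM in the control libraries, 125 and 107 CPM with Nfat5-1-siRNA and 95.9 and 106 CPM with Nfat5-2-siRNA. It was lower by 5.28 times in a tight group of libraries (log2 fold change -2.40 ± 0.14 (SE), adjusted p = 1.16e-05), and shares exonic bases with 2 other annotated genes. The oxygen sensor EGLN3 was at 258 and 192 CPM in the control libraries and 93.7, 51.16, 86.5 and 64.2 CPM in the Nfat5-siRNA libraries (log2 fold change -1.63, adjusted p = 1.01e-04), and PGAM1 and the peptide hormone ADM had log2 fold changes of -1.04 and -1.03. VEGFA, the vascular growth factor, was at 322 and 331 CPM in the control libraries and 1032, 676, 853 and 747 CPM in the Nfat5-siRNA libraries (log2 fold change 1.32, adjusted p = 0.00121), the lipid droplet coat protein PLIN2 at 136 and 119.6 CPM in the control libraries and 350.3, 336, 420.3 and 509 CPM in the Nfat5-siRNA libraries (log2 fold change 1.66, adjusted p = 8.86e-04), and hexokinase HK2 rose by 0.84. Without either control library 1 gene of the list was higher and 2 lower. HK2, PGAM1 and ADM lost their calls without either control library (adjusted p = 0.293 and 0.146, 0.113 and 0.105, and 0.348 and 0.873). The adjusted p was 0.0998 for VEGFA without replicate 1 of the control and 0.0970 for PLIN2 without replicate 2.

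Cholesterol synthesis was the list with the fewest calls among those with at least 10 genes read. Of 12 genes, 1 was lower and 11 did not pass, 8.33% called beside 48.0% of all named genes, with a median log2 fold change of 0.01. As the mean of both constructs in a fit with 3 groups, 2 were higher and 3 lower. The gene that was lower was TM7SF2, a sterol reductase, at 107 and 94.7 CPM in the control libraries and 18.5, 18.6, 15.2 and 12.97 CPM in the Nfat5-siRNA libraries (log2 fold change -2.63 ± 0.16 (SE), adjusted p = 1.77e-05). SREBF1, the transcription factor of lipid synthesis, was at 303 and 258 CPM in the control libraries and 266, 300.3, 269.9 and 272 CPM in the Nfat5-siRNA libraries, and its arms overlapped. FDFT1 and CYP51A1 had log2 fold changes of 0.49 and 0.45 and SQLE -0.44, none past the threshold. At the given spread these values do not show that the genes were equal in both arms.

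Of 15 extracellular matrix genes read from a list of 31, 10 were higher, 1 was lower and 4 did not pass, so that 73.3% were called beside 48.0% of all named genes, with a median log2 fold change of 1.47. THBS1, the matricellular protein thrombospondin-1 (chromosome 30, 6770135 to 6785062), was at 231 and 191 CPM in the control libraries, 2362 and 1280.4 CPM with Nfat5-1-siRNA and 1672 and 1559 CPM with Nfat5-2-siRNA. The highest value was replicate 1 of Nfat5-1-siRNA, and all 4 were several times above the control libraries (log2 fold change 3.01 ± 0.20 (SE), adjusted p = 2.44e-05). CCDC80, a secreted matrix protein, was at 38.6 and 47.0 CPM in the control libraries and 474, 282, 613 and 380.5 CPM in the Nfat5-siRNA libraries (log2 fold change 3.29, adjusted p = 8.81e-05). The collagen cross-linking enzymes LOX and LOXL2 were at 192 and 325 CPM in the control libraries and 991, 634, 1008 and 694 CPM in the Nfat5-siRNA libraries and at 4.20 and 5.02 CPM in the control libraries and 37.4, 11.7, 34.3 and 12.6 CPM in the Nfat5-siRNA libraries. For both, replicate 1 was above replicate 2 under either construct. LOXL2 shares exonic bases with R3HCC1, and its log2 fold change was 1.28 without replicate 1 of the control (adjusted p = 0.0955) and 3.09 without replicate 2.

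The laminin chain LAMA3, of the epithelial basement membrane, rose by 1.24, the collagen lysyl hydroxylase PLOD2 by 1.48, the protease inhibitor SERPINE2 by 1.47, and LTBP1, which binds latent TGF-beta, by 1.34 on the log2 scale. LTBP3, its relative, was lower (log2 fold change -1.26, adjusted p = 4.54e-04). TGFB1 itself was at 0.49 and did not pass (adjusted p = 0.298). Without replicate 1 of Neg-siRNA (300 mOsm) 5 genes of the list were higher and 0 lower, and without replicate 2, 9 were higher and 1 lower. Among the genes named here, LAMA3, LOX, LOXL2, PLOD2 and LTBP3 lost their calls without replicate 1 (adjusted p = 0.0879, 0.0936, 0.0955, 0.0680 and 0.0544).

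Among 6 chemokine and cytokine genes, CCL24 and CSF1, the growth factor of macrophages, were higher, and TNFSF10, the death ligand TRAIL, was lower. The share called, 50%, was again near the 48.0% of all named genes. CSF1 was at 42.4 and 34.6 CPM in the control libraries and 295, 377, 240.1 and 267 CPM in the Nfat5-siRNA libraries (log2 fold change 2.93, adjusted p = 4.90e-05), and TNFSF10 at 41.6 and 34.4 CPM in the control libraries and 9.73, 10.4, 12.9 and 8.61 CPM in the Nfat5-siRNA libraries (log2 fold change -1.87, adjusted p = 1.89e-04). The kinase MAP3K8, the chemoattractant RARRES2 and the cytokine CLCF1 had log2 fold changes of 0.70, 0.69 and 0.13 and did not pass. DUSP4 and DUSP7, phosphatases that switch off MAP kinases, were at 59.0 and 52.7 CPM in the control libraries and 589.9, 667, 534 and 388 CPM in the Nfat5-siRNA libraries and at 43.6 and 44.3 CPM in the control libraries and 196, 329, 257 and 438 CPM in the Nfat5-siRNA libraries (log2 fold change 3.29, adjusted p = 3.53e-05 and log2 fold change 2.73, adjusted p = 1.02e-04), and DUSP4 shares exonic bases with 2 other annotated genes. Of the 3 genes read for the epidermal growth factor family, AP-1 and immediate early genes, these 2 were higher, beside 48.0% of all named genes called, and MYC did not pass (log2 fold change 0.90, adjusted p = 0.953).

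Of 11 interferon-stimulated genes, 5 were lower, 0 higher and 6 did not pass. The share called, 45.5%, was near the 48.0% of all named genes. UBE2L6, the enzyme that transfers ISG15, was at 129 and 202 CPM in the control libraries, 20.1 and 24.1 CPM with Nfat5-1-siRNA and 23.0 and 24.1 CPM with Nfat5-2-siRNA. The control libraries differed from each other, yet both lay well above the 4 others (log2 fold change -2.83 ± 0.14 (SE), adjusted p = 6.95e-06). IFI44L, PARP14, PARP9 and the kinase EIF2AK2 had log2 fold changes of -1.82, -1.56, -0.82 and -0.79. ISG15 was at 39.7 and 74.3 CPM in the control libraries and 29.3, 39.2, 38.8 and 36.0 CPM in the Nfat5-siRNA libraries and did not pass (log2 fold change -0.62, adjusted p = 0.244). This list was sensitive to single libraries. Only UBE2L6 kept its call without either control library, and between 2 and 7 genes were lower when a library of the Nfat5-siRNA arm was left out.

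Of 7 genes of junctions and keratins, 1 was higher and 6 did not pass, 14.3% called beside 48.0% of all named genes. DSC3, a desmosomal cadherin, was at 85.5 and 85.5 CPM in the control libraries, 289 and 298 CPM with Nfat5-1-siRNA and 266 and 255 CPM with Nfat5-2-siRNA. Its libraries were tightly grouped in both arms (log2 fold change 1.70 ± 0.14 (SE), adjusted p = 1.03e-04). CLDN1, a tight junction protein, was at 211 and 134 CPM in the control libraries and 101, 85.7, 114 and 38.0 CPM in the Nfat5-siRNA libraries and did not pass (log2 fold change -1.05, adjusted p = 0.0598).

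**Figure D4:**
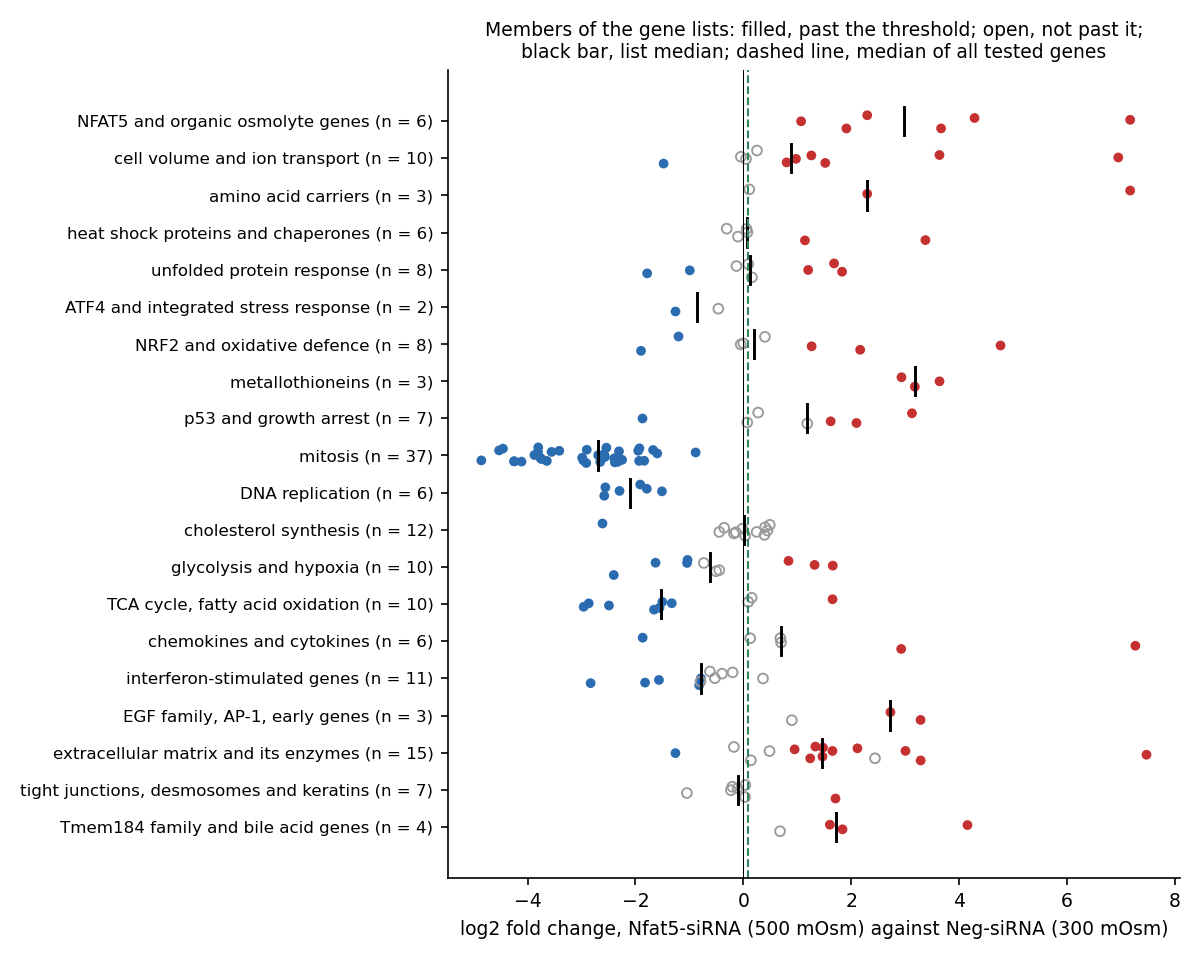
Log2 fold change between Nfat5-siRNA (500 mOsm) and Neg-siRNA (300 mOsm) of each gene read in 20 gene lists, with filled points for genes past the threshold (red higher, blue lower), open points for the others, a black bar at each list's median and a dashed line at the median of all tested genes, 0.09. The 37 mitosis genes lie between -4.86 and -0.88, and the 6 NFAT5 and organic osmolyte genes between 1.07 and 7.17.

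The constructs were then read apart, in a fit with 3 groups. With Nfat5-1-siRNA 3621 genes were higher and 3375 lower than in the control libraries, 18.9% and 17.6% of the tested genes and together 36.5%. With Nfat5-2-siRNA 3715 were higher and 3424 lower, 19.4% and 17.8%, together 37.2%. Both comparisons use the same 2 control libraries and are not independent of each other. These counts were larger than with both constructs in 1 arm (common dispersion 0.0485 with 2 arms and 0.0191 with 3 groups). The log2 fold changes were 7.24 with Nfat5-1-siRNA and 7.12 with Nfat5-2-siRNA for SLC6A12, 3.58 with Nfat5-1-siRNA and 3.75 with Nfat5-2-siRNA for AKR1B1 and 2.36 with Nfat5-1-siRNA and 2.23 with Nfat5-2-siRNA for SLC6A6. They were 4.47 with Nfat5-1-siRNA and 4.05 with Nfat5-2-siRNA for SLC5A3 and 1.80 with Nfat5-1-siRNA and 1.88 with Nfat5-2-siRNA for TMEM184B. Between the constructs these 5 genes did not differ past the threshold (adjusted p = 1.00 for each), with standard errors of their log2 differences from 0.13 to 0.29, which does not show that the constructs acted alike on them.

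Directly compared, 395 genes were higher and 237 lower with Nfat5-2-siRNA than with Nfat5-1-siRNA, 2.06% and 1.24% of the tested genes and together 3.29%. With library totals in place of the composition factors, 435 were higher and 131 lower. The direct count also depended on the block, since 6 genes were higher and 2 lower without the replicate number in the design. A stricter low-count filter (filterByExpr of edgeR) left 48 higher and 20 lower. Leaving out replicate 1 or 2 of Nfat5-1-siRNA left 144 and 79 or 102 and 21, and leaving out replicate 1 or 2 of Nfat5-2-siRNA left 155 and 94 or 392 and 127. Of the genes named below for such a difference, ITGB6 and ENSCAFG00000011265 kept the call without the block (adjusted p = 0.0484 and 0.0183), whereas AKAP12, TTLL4, CALHM1, MYC, DHRS3 and STBD1 lost it (adjusted p = 0.0662, 0.0716, 0.0717, 0.0691, 0.343 and 1.00). Of the genes that differed from Neg-siRNA (300 mOsm) with both constructs in 1 arm, 107 of those higher and 86 of those lower also differed between the constructs.

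AKAP12, a scaffold of protein kinase A, moved in opposite directions. It was at 149 and 104 CPM in the control libraries, 80.7 and 56.5 CPM with Nfat5-1-siRNA and 303 and 216 CPM with Nfat5-2-siRNA. The Nfat5-1-siRNA libraries lay below both control libraries and the Nfat5-2-siRNA libraries above both (log2 difference 1.92 ± 0.13 (SE), adjusted p = 1.48e-14). TTLL4, a tubulin-modifying enzyme, was at 25.2 and 21.6 CPM in the control libraries, 18.0 and 25.5 CPM with Nfat5-1-siRNA and 56.1 and 83.7 CPM with Nfat5-2-siRNA, so that only Nfat5-2-siRNA stood apart from the control level (log2 difference 1.68 ± 0.16 (SE), adjusted p = 5.76e-10). CALHM1, an ion channel subunit, was at 23.4 and 25.9 CPM in the control libraries, 2.77 and 4.28 CPM with Nfat5-1-siRNA and 17.8 and 11.3 CPM with Nfat5-2-siRNA. It was lower than in the control libraries with both constructs and much lower with Nfat5-1-siRNA (log2 difference 2.04 ± 0.22 (SE), adjusted p = 1.77e-08).

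ITGB6, an epithelial integrin subunit, was at 63.4 and 66.0 CPM in the control libraries, 54.0 and 53.2 CPM with Nfat5-1-siRNA and 22.7 and 18.3 CPM with Nfat5-2-siRNA. Nfat5-1-siRNA lay slightly under the control level and Nfat5-2-siRNA well under it (log2 difference -1.39 ± 0.15 (SE), adjusted p = 7.53e-09). STBD1, a glycogen-binding protein, was at 12.8 and 7.61 CPM in the control libraries, 23.0 and 15.8 CPM with Nfat5-1-siRNA and 10.8 and 5.90 CPM with Nfat5-2-siRNA, with Nfat5-1-siRNA above and Nfat5-2-siRNA near the control level (log2 difference -1.25 ± 0.20 (SE), adjusted p = 1.12e-04). DHRS3, a retinal reductase, was lower with both and lowest with Nfat5-2-siRNA, at 26.8 and 20.4 CPM in the control libraries, 11.6 and 10.3 CPM with Nfat5-1-siRNA and 5.28 and 4.12 CPM with Nfat5-2-siRNA (log2 difference -1.23 ± 0.20 (SE), adjusted p = 2.13e-04). Among the listed genes MYC was higher with Nfat5-2-siRNA, at 114 and 121 CPM in the control libraries, 106 and 145 CPM with Nfat5-1-siRNA and 327 and 296 CPM with Nfat5-2-siRNA (log2 difference 1.32, adjusted p = 5.01e-09). DHRS3 shares exonic bases with another annotated gene, and its call between the arms was lost without either control library (adjusted p = 0.903 and 0.684).

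**Figure D5:**
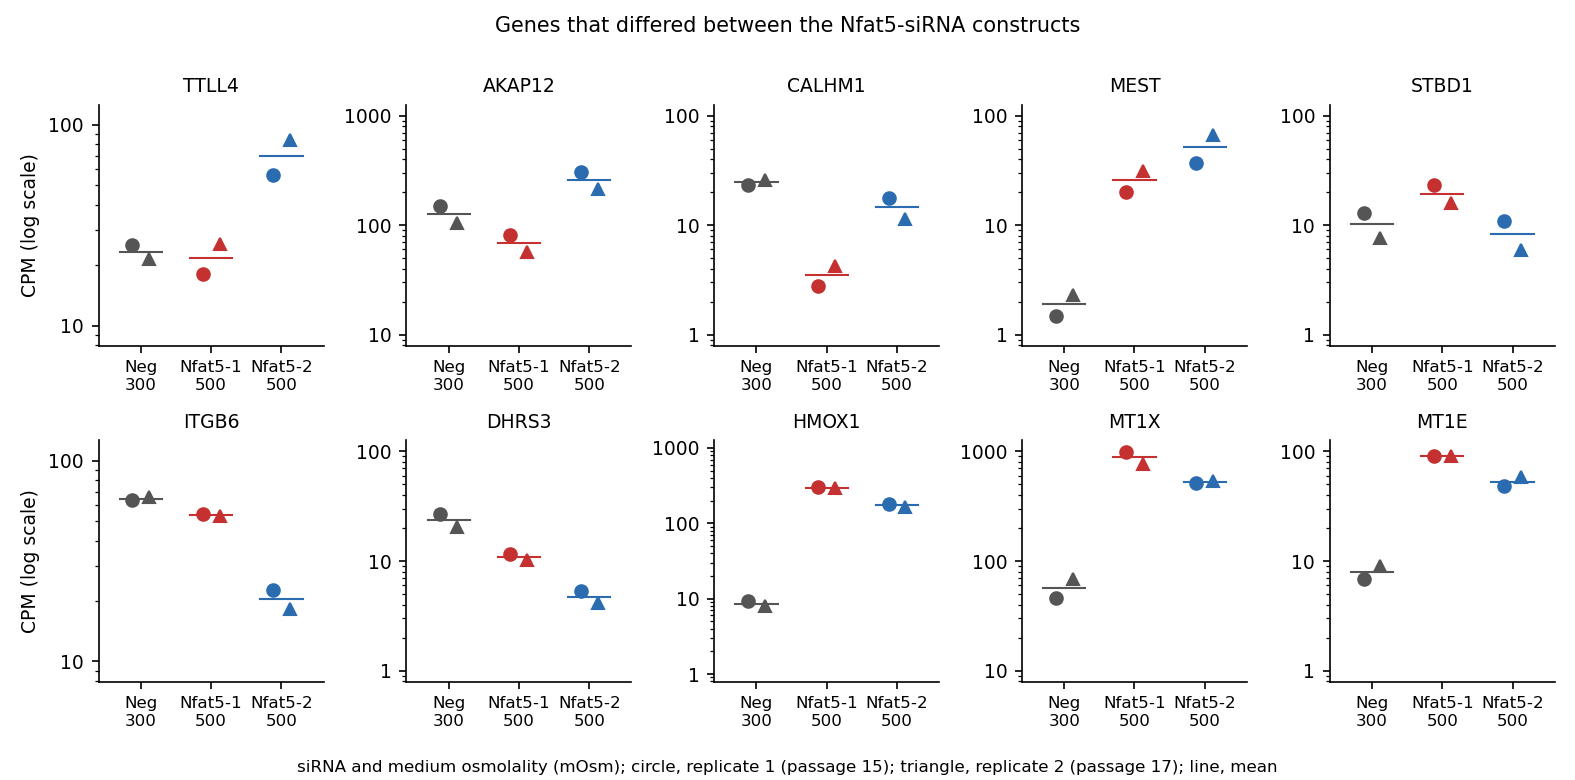
CPM of each library on a log axis for 10 named genes that differed between the constructs (TTLL4, AKAP12, CALHM1, MEST, STBD1, ITGB6, DHRS3, HMOX1, MT1X and MT1E), with circles for replicate 1, triangles for replicate 2 and a line at the mean of each pair. In each panel both libraries of one construct lie on the same side of both libraries of the other, and AKAP12 is at 149 and 104 CPM in the control libraries and 80.7, 56.5, 303 and 216 CPM in the Nfat5-siRNA libraries.

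Some of the largest differences belong to genes that no source used here pairs with a symbol. ENSCAFG00000003029 (chromosome 13, 62434792 to 62438932, 4 exons) was at 0.580 and 0.937 CPM in the control libraries, 389 and 188 CPM with Nfat5-1-siRNA and 391 and 514 CPM with Nfat5-2-siRNA (log2 fold change 8.95 ± 0.53 (SE), adjusted p = 1.21e-05). ENSCAFG00000011265 (chromosome 7, 4156687 to 4282147, 38 exons) was at 0.0464 and 0.00 CPM in the control libraries, 3.75 and 5.90 CPM with Nfat5-1-siRNA and 65.5 and 42.5 CPM with Nfat5-2-siRNA. It held 2 and 0 counts in the control libraries and was higher with Nfat5-2-siRNA than with Nfat5-1-siRNA (log2 difference 3.47 ± 0.22 (SE), adjusted p = 5.07e-16). The difference was 2.85 or 4.14 without replicate 1 or 2 of Nfat5-1-siRNA, and 2.89 or 4.09 without replicate 1 or 2 of Nfat5-2-siRNA. ENSCAFG00000028589 (chromosome 4, 66956463 to 67033953, 5 exons) was at 23.4 and 18.8 CPM in the control libraries, 0.0443 and 0.0218 CPM with Nfat5-1-siRNA and 0.178 and 0.0744 CPM with Nfat5-2-siRNA (log2 fold change -8.07 ± 0.39 (SE), adjusted p = 5.67e-06). With 2, 1, 7 and 3 counts in the Nfat5-siRNA libraries it was near the limit of detection there, so the size of its fall is imprecise. ENSCAFG00000009519 (chromosome 24, 32162033 to 32174638, 5 exons) was at 125 and 117 CPM in the control libraries, 0.687 and 1.27 CPM with Nfat5-1-siRNA and 2.90 and 4.12 CPM with Nfat5-2-siRNA (log2 fold change -5.80 ± 0.47 (SE), adjusted p = 8.12e-05). All 4 were above or below both control libraries in each of the Nfat5-siRNA libraries.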

How the data were processed

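RNA was sequenced from MDCK I cells, and the authors aligned it as paired-end reads on CanFam3.1 with HISAT2 2.0.5 and counted them on Ensembl 92 exons with featureCounts 1.5.1, without regard to strand (option 0). The authors deposited these counts per gene, not normalized. Pairs were not set to be counted as fragments, and even counts were the more frequent ones (6271 values of 2 against 5504 of 1 and 2330 of 3), so counts may exceed fragments and are not all independent. No pair of libraries was identical, and 0 columns of the table lay outside the labels. The totals stand in the report. The number of replicates limits the precision.

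Genes whose counts summed to 5 or more in these 6 libraries entered the quasi-likelihood test of edgeR 4.0.16 (R 4.3.3, TMM factors 0.958 to 1.05) on a design with the replicate number and 2 arms, 4 libraries against 2. A second fit had 3 groups. The Benjamini-Yekutieli adjustment, two-sided, was used at 0.05, as the methods of the paper name it. Standard errors came from the F statistic. The remaining libraries of the series, Neg-siRNA (500 mOsm), were not used here. Replicate numbers pair the samples, since the labels give passage 15 to each replicate 1 and passage 17 to each replicate 2. The differences between passages correlated at 0.126 to 0.403 between groups over 12453 genes. The labels do not say more of the replicates, so p-values rest on the spread left between these samples after the passages were blocked, which in the fit with 2 arms also holds differences between the constructs.

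Symbols came from the identifier and symbol pairs of the paper's supplementary table. The table is described there as genes raised at 500 mOsm and then lowered with both Nfat5-siRNAs, but the signs of the authors' fold changes in it run both ways, so by which rule its genes were chosen is not known here. Its fold changes and p-values were used for nothing else. The table lists 989 identifiers, 860 of them with a symbol. NFAT5 was taken by position, as the gene next to NQO1 with a span of 111502 bases in the count table and 122346 bases in RefSeq (UU_Cfam_GSD_1.0). Coordinates are those of CanFam3.1. Of 519 symbols in 21 lists, 172 had an identifier, and none of the mitochondrially encoded list did. The members, lists and tests were chosen with earlier results of these data known. Named were NFAT5, SLC6A6, SLC6A12, SLC5A3, AKR1B1 and TMEM184B, the 12 largest rises and falls with at least 10 CPM in the higher arm, up to 4 called members per list with at least 1 CPM, the 3 largest construct differences each way, and cell type markers. Other list members are given as values. Results for some items are not reported here.

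The fits were tested on simulated data with 200 changed genes among 18787. The simulation gave both constructs the same fold, and its dispersion was set below the 0.0485 found with 2 arms. For both constructs against the control, edgeR recovered 134 of the changed genes (25.6% at 1.5-fold, 87.7% at 2-fold, 100% at 4-fold) and called 1 unchanged gene. For Nfat5-1-siRNA against the control it recovered 114 (11.5% at 1.5-fold, 73.8% at 2-fold, 100% at 4-fold). Since the real constructs differed and changed genes were far more frequent, these shares do not give the recovery in the real libraries. Figures were drawn with matplotlib 3.10.9.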

Additional observations from a re-analysis of the deposited data

Results flagged for a closer look

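The 10 named genes below stood out because their difference from Neg-siRNA (300 mOsm) was not the same for both constructs, by the test of Nfat5-2-siRNA against Nfat5-1-siRNA itself (edgeR quasi-likelihood test, Benjamini-Yekutieli adjusted over all tested genes). The log2 difference was 1.68 for TTLL4 (adjusted p = 5.76e-10), 1.92 for AKAP12 (adjusted p = 1.48e-14), 2.04 for CALHM1 (adjusted p = 1.77e-08) and 0.99 for MEST (adjusted p = 1.70e-04), all higher with Nfat5-2-siRNA. It was -1.39 for ITGB6 (adjusted p = 7.53e-09), -1.25 for STBD1 (adjusted p = 1.12e-04) and -1.23 for DHRS3 (adjusted p = 2.13e-04), all lower with Nfat5-2-siRNA. For the heme-degrading enzyme HMOX1 it was -0.77 (adjusted p = 3.41e-04), and for the metallothioneins MT1X and MT1E it was -0.74 and -0.78 (adjusted p = 0.00442 and 0.00132). Without the replicate block, ITGB6 kept the call between the constructs (adjusted p = 0.0484) and the other 9 lost it (adjusted p from 0.0662 to 1.00). With filterByExpr, AKAP12, TTLL4 and ITGB6 kept it (adjusted p = 0.00186, 0.0226 and 0.0149) and the other 7 lost it (from 0.0544 to 0.624). AKAP12, TTLL4, CALHM1 and ITGB6 kept it with each library left out. Without replicate 2 of Nfat5-1-siRNA, HMOX1, MEST, STBD1, DHRS3 and MT1E lost it (adjusted p = 0.444, 0.461, 0.318, 0.288 and 0.126). Without replicate 1 of Nfat5-1-siRNA, MT1X and MT1E lost it (adjusted p = 1.00 for both), without replicate 1 of Nfat5-2-siRNA the same genes did (0.104 and 0.209), and without replicate 2 of Nfat5-2-siRNA MEST and MT1X did (0.0756 and 0.0655). HMOX1, MEST, MT1X and MT1E were past the threshold in the same direction with each construct, so that for these genes the constructs differed in size. TTLL4, AKAP12, CALHM1, ITGB6, STBD1 and DHRS3 were named because they differed between the constructs, so their differences are a description and support nothing beyond themselves. The part of the sequences of the constructs in these differences was not tested.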

How the results depend on the processing

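The alternatives were DESeq2 size factors or library totals in place of TMM, no low-count filter, the filterByExpr filter of edgeR, the DESeq2 1.42.0 test, the Benjamini-Hochberg adjustment, no replicate block, a 3-group design and each library left out in turn. Of 79 named genes called between the arms, 64 were called in every setting, 15 lost the call when 1 library was left out, 4 lost it in another setting and 0 reversed. For the genes higher and lower between the arms, Benjamini-Hochberg gave 4133 and 3897 and the mean of both constructs in the 3-group design gave 3957 and 3867, in place of 2461 and 2386. Their counts ranged from 535 to 2735 and from 565 to 2666 with 1 library left out, with the lowest counts without a control library, which leaves 1 library in that arm. With Nfat5-1-siRNA the counts ranged from 2187 to 3645 higher and from 2023 to 3485 lower, lowest without replicate 2 of Nfat5-1-siRNA, and with Nfat5-2-siRNA from 2702 to 3314 and from 2544 to 3423. Between the constructs, in place of 395 and 237, filterByExpr gave 48 and 20, DESeq2 227 and 203, Benjamini-Hochberg 863 and 755, and library totals 435 and 131, and with 1 library left out the counts ranged from 102 to 392 and from 21 to 291. The cause of these changes was not tested, apart from the lost libraries. Library totals moved the median of all genes for Nfat5-2-siRNA from 0.10 to 0.21 on the log2 scale. With filterByExpr HSF2, PARP9 and DHRS3 lost the call between the arms (adjusted p = 0.0589, 0.0635 and 0.0888), and with library totals PARP9 and DHRS3 did (0.124 and 0.0614). The list member ADM lost its call with filterByExpr and with library totals too (edgeR, adjusted p = 0.0625 and 0.0677). Where the control arm kept 1 library, it was taken to vary like the others. The planned promoter motif search was not run, since no promoter sequences were used here.

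Without the replicate block, the counts between the arms were 2393 and 2288, those with Nfat5-1-siRNA 2537 and 2290, those with Nfat5-2-siRNA 2582 and 2347, and those between the constructs 6 and 2. Of the named genes called between the arms, PARP9 and IFI44L lost the call without the block (adjusted p = 0.0575 and 0.0856, edgeR), and the block changed no other call among them. For the differences between the constructs, ITGB6 and ENSCAFG00000011265 kept the call without the block, and the other genes named for one lost it.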
